A study of Mus musculus with 3 samples.

Results

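AT-rich promoter probes are the promoter probes with under 35% G plus C that lie on autosomes and outside the olfactory and vomeronasal receptor genes, and 17445 of the array's 237203 probes outside the controls met this rule. They were chosen from their sequence, chromosome and gene name, and no measured value entered the choice. The 17445 probes lay on 8234 of 16394 gene names, 656 of them carried no gene name, and 2129 genes carried 3 or more. Of these 2129 genes, 2124 kept 3 usable probes on every array after outlier spots were left out and were tested, and 5 were lost. Nearly all of the probes (17442) were 60 nt long, their median G plus C was 31.7% and the lowest was 13.3%.

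The arrays were custom 2-colour Agilent arrays of mouse promoters hybridised with chromatin DNA of C2C12 cells, an immortalised mouse myoblast line, that had been arrested in G0 by growth in methylcellulose. DNA precipitated with an antibody to PRDM2 was hybridised on 2 arrays and DNA precipitated with an antibody to H3K9me2 on 1 array, in Cy5, each beside its own input DNA in Cy3. All 3 arrays hold arrested cells of 1 line, with no proliferating or PRDM2-depleted cells among the samples used here. No array with a control antibody was used here, and nothing in the labels says that the PRDM2 arrays came from separate cultures, so that p-values measure the spread between these 2 arrays, which may be technical. PRDM2 array 2 and the H3K9me2 array share a scan day, PRDM2 array 1 was scanned on another, and the dyes were never exchanged.

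PRDM2, also called RIZ1, is a zinc finger protein whose PR domain can methylate lysine 9 of histone H3, and H3K9me2 is the dimethylated form of that lysine, a mark of silent euchromatin and of domains at the nuclear periphery. Mouse promoters fall broadly into CpG-rich ones, typical of housekeeping and developmental genes, and CpG-poor ones, typical of tissue-restricted genes, whose DNA is AT-rich. AT-rich DNA also binds its probe less tightly, so that such probes give dimmer signals than GC-rich probes from the same amount of DNA.

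The probes that carry the patterns described below are printed here as the array's sequence column gives them, 5′ to 3′, in lower case with each CpG dinucleotide in capitals. Positions are those of the array design. The sources used here do not name the genome build of these positions, and the array's start equalled the GRCm38.p6 start for 214 of 17880 exact matches between array probes and RefSeq promoter windows. The first 3 are single probes with high PRDM2 ratios in genes whose other AT-rich probes were lower.
Snx26 probe 3, chr7:30245541-30245600: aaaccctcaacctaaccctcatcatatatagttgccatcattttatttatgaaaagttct
Igfbp3 probe 2, chr11:7115220-7115279: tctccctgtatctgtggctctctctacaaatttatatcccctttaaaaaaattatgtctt
Ppp2r5e probe 2, chr12:76516782-76516841: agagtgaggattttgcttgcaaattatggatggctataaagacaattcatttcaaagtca
All AT-rich probes of Gsh1 follow, the gene with the lowest PRDM2 mean, and they hold 1, 3 and 2 CpG.
Gsh1 probe 1, chr5:147496814-147496873: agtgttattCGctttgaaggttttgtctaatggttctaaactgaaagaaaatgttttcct
Gsh1 probe 2, chr5:147497752-147497811: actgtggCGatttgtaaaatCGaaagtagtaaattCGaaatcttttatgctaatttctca
Gsh1 probe 3, chr5:147498729-147498788: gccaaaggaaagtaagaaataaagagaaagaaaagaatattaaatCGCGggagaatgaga
The Ankrd1 probes are shown for their high H3K9me2 ratios.
Ankrd1 probe 1, chr19:36183761-36183820: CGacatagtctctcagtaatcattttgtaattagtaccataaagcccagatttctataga
Ankrd1 probe 2, chr19:36183968-36184027: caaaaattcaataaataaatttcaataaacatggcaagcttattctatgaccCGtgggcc
Ankrd1 probe 3, chr19:36187213-36187272: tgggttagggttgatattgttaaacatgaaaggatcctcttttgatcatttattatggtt
The Ank probes and 1 probe of Sepp1 are shown for their very low H3K9me2 ratios beside ordinary PRDM2 ratios, and the second Ank probe begins with a run of 14 A. The Sepp1 probe matched the GRCm38.p6 RefSeq promoter window of Selenop, the current symbol of Sepp1, exactly at chr15:3270745-3270804 on the gene's strand, with its centre 8 bases after the gene's start.
Ank probe 1, chr15:27408999-27409058: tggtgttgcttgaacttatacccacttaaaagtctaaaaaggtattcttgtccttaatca
Ank probe 2, chr15:27410074-27410133: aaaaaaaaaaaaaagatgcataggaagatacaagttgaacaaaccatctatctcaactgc
Ank probe 3, chr15:27412661-27412720: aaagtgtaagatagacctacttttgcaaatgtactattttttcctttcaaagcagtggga
Sepp1 probe 3, chr15:3220745-3220804: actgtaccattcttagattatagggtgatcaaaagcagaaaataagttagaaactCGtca

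Most AT-rich probes were dim in the IP channel and bright in the input channel. IP signal was well above background, by the scanner software's own flag, at 30.1% of the AT-rich probes on PRDM2 array 1, 24.5% on array 2 and 35.8% for H3K9me2. The 200287 other autosomal probes outside the receptor genes had bright IP at 82.5%, 77.6% and 84.0% on the same arrays. The IP was therefore bright at a minority of AT-rich probes on each array: 2936 (16.8%) were bright on both PRDM2 arrays, 2058 (11.8%) on all 3 arrays and 8385 (48.1%) on none. Bright input was found at 90.4%, 95.1% and 67.8% of the AT-rich probes, again with PRDM2 arrays 1 and 2 before H3K9me2, and on all 3 arrays at 11628 of them (66.7%). No AT-rich probe was saturated. A probe whose IP is not well above background has only a bound, and the scanner software had put a surrogate value in place of the IP signal at 11.4%, 15.2% and 35% of the AT-rich probes.

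The median log2 ratio of IP over input, with the middle probe of an array as 0, was -0.18 and -0.20 on the 2 PRDM2 arrays and -0.59 on the H3K9me2 array for AT-rich probes. The other autosomal probes outside receptor genes had medians of 0.02, 0.02 and -0.03 on the same arrays. The AT-rich medians were a little below the others on the PRDM2 arrays and further below on the H3K9me2 array. The PRDM2 median of AT-rich probes turns to 0.43 with normexp background correction and to 0.15 with loess, and the H3K9me2 median to 0.18 with loess. These medians were not tested, and an exact two-sided sign permutation of 2 arrays cannot give a p below 0.5. Of the AT-rich probes that were bright in both channels, 5177, 4266 and 5341 on the 3 arrays, the medians were 0.23, 0.24 and 0.83, a filter that keeps the probes with the most IP signal. The other probes bright in both channels had medians of 0.34, 0.43 and 0.32, so that the order for H3K9me2 was the opposite one there.

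Both antibodies gave a U-shaped relation to base composition, whose floor lay just outside the AT-rich class. From under 20% G plus C (50 probes) to 20 to 25%, 25 to 30% and 30 to 35%, the PRDM2 array 1 medians were 1.1, 0.36, 0.02 and -0.22, and on array 2 they were 1.71, 0.51, 0.06 and -0.26. The H3K9me2 medians of the same classes were 0.19, -0.15, -0.35 and -0.66. The lowest median of any class was that of 35 to 40%, with -0.34 and -0.39 for PRDM2 and -0.93 for H3K9me2, and probes of 60% and over reached 3.22, 3.28 and 1.5. The high ratios of the most AT-rich class rest on almost no measured IP: 70%, 72% and 92% of the 50 probes under 20% had a surrogate IP value on the 3 arrays. Just inside the limit, at 33 to 35%, the 7014 probes had medians of -0.25, -0.28 and -0.71, and just outside it, at 35 to 37%, 38468 probes had -0.32, -0.36 and -0.88.

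**Figure D1:**
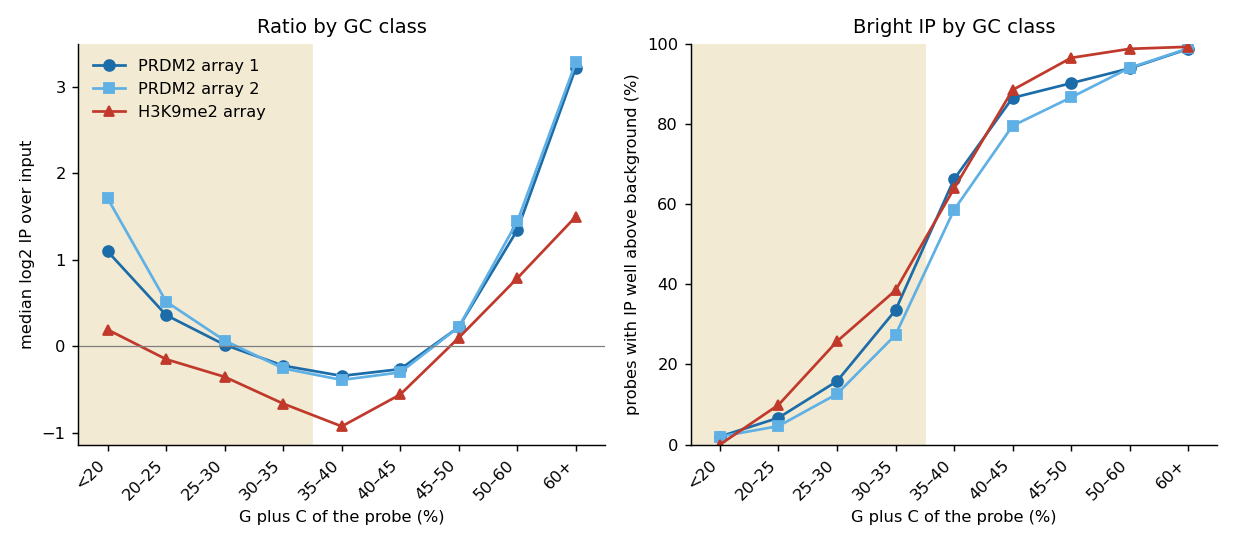
Left, median log2 IP over input, relative to the median probe of the array, of autosomal probes outside receptor genes in classes of G plus C, with 1 line per array; right, the percent of those probes with IP well above background. The shaded classes are the AT-rich probes, whose medians fall towards 35% G plus C on every array while the share of bright IP stays under 40%.

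Receptor probes of equal base composition differed from the AT-rich probes mainly on the H3K9me2 array. The 17445 AT-rich probes had an H3K9me2 median of -0.59 and the 3420 olfactory and vomeronasal probes under 35% G plus C had 0.57, while the PRDM2 medians were -0.18 and -0.20 for AT-rich probes and 0.09 and 0.10 for receptor probes. Both channels were dim at 27.0% of AT-rich and 57.0% of receptor probes on the H3K9me2 array, and probes with surrogates in both channels there had a ratio of 0.56 in either set, close to the receptor median. Without probes dim in both channels the H3K9me2 medians were -1.30 at AT-rich and 1.67 at receptor probes. That filter keeps dim input only beside bright IP, and dim IP only beside bright input. The kept medians therefore depend on input brightness, and their gap is no separate measure of H3K9me2. Input at the receptor probes was dimmer, with 67.8% of AT-rich and 30.6% of receptor probes bright on the H3K9me2 array. Among probes with input well above background on all 3 arrays, H3K9me2 IP was bright at 44.8% of 11628 AT-rich probes and at 58.6% of 981 receptor probes, with median ratios of -1.67 and -0.04. The H3K9me2 gap of -1.15 between the medians became 0.00 with normexp and -0.30 with loess. In the authors' deposited value table it was 0, with both medians at -0.28. That median is a deposited value of 0 less the column median of 0.278, so both sets tie at 1 value there. Such a tie measures neither a difference nor its absence. The 1043 probes under 35% on sex chromosomes had medians of 0.23, 0.30 and 0.56 on the 3 arrays.

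Which genes carried PRDM2 signal at their AT-rich probes was asked by averaging these probes per gene. Gene means of the 2124 genes had medians of -0.05 and -0.08 on PRDM2 arrays 1 and 2. The middle 90% ran from -0.79 to 1.40 on array 1 and from -0.84 to 1.02 on array 2. By limma's test against 0, with Benjamini-Hochberg adjustment over 18732 gene and GC-class means, PRDM2 was higher at 265 of the 2124 genes (12.5%), against 41% of all means tested, and lower at 184 (8.66%), against 1.88% of all. The AT-rich means were thus less often called higher and more often called lower than the table as a whole, a comparison without a test of its own. The split depends on the scaling: 85 higher and 1 lower with normexp, 437 and 38 with loess, and 51 and 737 with the median gene mean taken as 0. Of the 265, 49 had input bright at 80% or more of their AT-rich probes on each array and 43 had IP bright at 50% or more on both PRDM2 arrays, and of the 184, 63 had no AT-rich probe with bright IP on both.

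The 8 genes with the highest PRDM2 means and bright signals were Camk4, Nuak1, Snx26, Igfbp3, Tspan13, Rev3l, Mrgprb8 and Sprr2f. Camk4, a calcium and calmodulin dependent kinase, had means of 2.59 and 1.09 over 4 probes (1.84 ± 1.06, SD, n = 2; limma adjusted p = 0.0018). Nuak1, a kinase related to AMPK, had 1.55 and 1.69 over 3 probes (1.62 ± 0.10, SD, n = 2; limma adjusted p = 0.000603). Snx26, now Arhgap33, a sorting nexin, had 1.70 and 1.52 over 5 probes (1.61 ± 0.13, SD, n = 2; limma adjusted p = 0.000626). In all 3 the 2 PRDM2 arrays lay on the same side of 0, and IP was bright at 50% or more of the probes. Igfbp3, a secreted binding protein of insulin-like growth factors, had 1.99 and 1.01 (1.5 ± 0.69, SD, n = 2; limma adjusted p = 0.00194), with IP bright at all 3 of its probes on every array. Tspan13, a tetraspanin, had 1.90 and 0.73, and Rev3l, the catalytic subunit of DNA polymerase zeta, had 2.02 and 0.55. The adjusted p was 0.0049 for Tspan13 and 0.00931 for Rev3l. For Mrgprb8, a Mas-related receptor of sensory neurons and mast cells, and Sprr2f, a cornified envelope protein of skin, PRDM2 array 1 gave 1.97 and 2.10 and array 2 only 0.51 and 0.35, at adjusted p of 0.0111 and 0.0185.

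These means often rested on 1 probe. At Nuak1 the first probe gave 4.64 and 5.74 on the 2 PRDM2 arrays and the other two lay between -0.35 and 0.13, so that the median over its probes was -0.10 where the mean was 1.62. The Snx26 probe 3 printed above gave 6.79 and 4.46 for PRDM2 and 3.44 for H3K9me2, and Igfbp3 probe 2 gave 4.53 and 2.30 for PRDM2 and 2.82 for H3K9me2. Ppp2r5e probe 2 gave 5.27 and 4.43 on the PRDM2 arrays and -2.62 on the H3K9me2 array, where its IP was not well above background. All of these single probes had IP well above background on both PRDM2 arrays and input on all 3. Without its highest probe the mean of 166 of the 265 genes (62.6%) was under 50% of its value, and at 46 (17.4%) it was at or below 0. With the median over probes in place of the mean, 20 genes were called higher and 7 lower, and Mrgprb8 stood at -0.14. Fewer of the genes called lower rested on 1 probe: 181 of 184 had their median probe below 0 on both PRDM2 arrays, and without the lowest probe the mean of 24 (13%) was under 50% of its size.

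**Figure D2:**
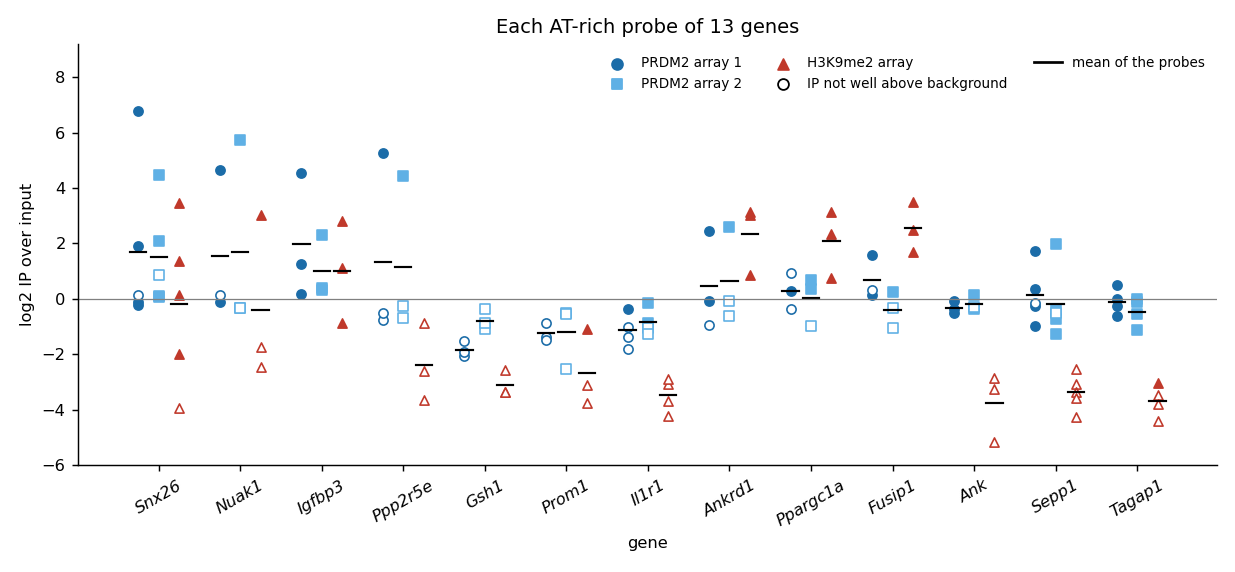
Log2 IP over input of each AT-rich probe of 13 genes, relative to the array's median probe, for PRDM2 arrays 1 and 2 and the H3K9me2 array from left to right within each gene; open symbols mark IP not well above background and bars the mean of the gene's probes. At Snx26, Nuak1 and Ppp2r5e 1 probe stands above 4 on both PRDM2 arrays and the others lie lower, and at Gsh1 every PRDM2 value is below 0 with no bright IP.

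Tested one by one with limma over 236323 probes, 69 of 17389 AT-rich probes (0.397%) were higher for PRDM2, against 4.98% of all probes, and none was lower, against 0.00381% of all. At an unadjusted p under 0.05, 1143 AT-rich probes were higher and 936 lower, and with normexp no AT-rich probe was called. The 69 lay on 69 different gene names or unnamed regions, so no promoter had a pair. Their PRDM2 means ran from 2.97 to 7.01, IP was bright on both PRDM2 arrays at 61 and input on all 3 arrays at 50. Their H3K9me2 ratio had a median of 2.76, with 49 of them at 2 or more and 3 below 0. Among the named ones were Rpp38, a subunit of RNase P, with 7.48 and 5.64 for PRDM2 and 3.63 for H3K9me2, and Elf1, an ETS transcription factor, with 6.15, 6.94 and 1.5; both were chosen after their values were seen. Asb3, which was chosen in the same way, had 6.23 and 5.41 for PRDM2 and -0.34 for H3K9me2, where its IP was not well above background.

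The probe nearest to a high AT-rich probe was seldom high for PRDM2. Of 340 AT-rich probes at 2 or more on both PRDM2 arrays (1.96% of AT-rich probes, against 13.1% of probes of 35% and over), 213 were bright in IP on both PRDM2 arrays and in input on all 3, and 195 of these had another probe within 500 bp. On PRDM2 array 1 the medians were 4.0 at these 195 and -0.04 at the nearest probe, a median of 159 bp away. On array 2 they were 3.04 and -0.10. The nearest probes of all AT-rich probes had medians of -0.14 and -0.18. The nearest probe was itself at 2 or more on both PRDM2 arrays for 13 of the 195 (6.67%), against 4.32% for all AT-rich probes with a neighbour. Among probes of 35% and over the share was 33.3% for the high bright ones, against 13.1% for all with a neighbour. Bright probes of 35% and over that passed the same threshold, 26978 in all, had medians of 3.69 and 3.36 on the 2 arrays, and their nearest probes had 1.37 and 1.46. Across all 16559 AT-rich probes with a neighbour in reach the correlation with it was 0.04 and 0.07 on the PRDM2 arrays and 0.17 on the H3K9me2 array, against 0.18, 0.28 and 0.14 for 210611 probes of 35% and over, as a description of probes that share an array. Only 1 of the 17445 AT-rich probes had 30 bases in common with another probe on either strand. For H3K9me2 the 1196 bright AT-rich probes at 2 or more had a median of 2.68 and their nearest probes 0.26, against 2.48 and 0.48 for 24433 probes of 35% and over.

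**Figure D3:**
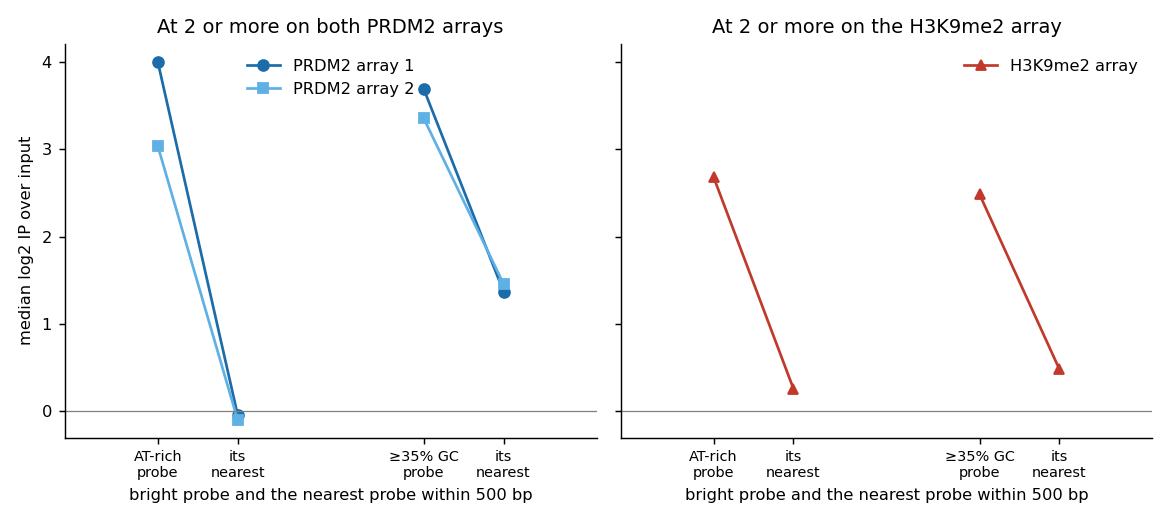
Median log2 IP over input of probes at 2 or more with bright IP and input, and of the nearest probe within 500 bp, for AT-rich probes and for probes of 35% G plus C and over; left, probes at 2 or more on both PRDM2 arrays, right, on the H3K9me2 array. On the PRDM2 arrays the neighbours of AT-rich probes have medians of -0.04 and -0.10 and those of the other probes 1.37 and 1.46.

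Gsh1, Prom1, Dhrs9 and Il1r1 were among the genes with the lowest PRDM2 means. Gsh1, now Gsx1, a homeobox factor of neural progenitors, had -1.84 and -0.79 (-1.31 ± 0.74, SD, n = 2; limma adjusted p = 0.00403). Prom1, a cholesterol-binding glycoprotein of membrane protrusions, had -1.23 and -1.20 (-1.21 ± 0.02, SD, n = 2; limma adjusted p = 0.00188). IP was not well above background at any AT-rich probe of Gsh1 or Prom1 on the PRDM2 arrays while input was bright at all, so that these means are upper bounds. Dhrs9, a retinol dehydrogenase, had -0.82 and -1.17 and no bright IP, at an adjusted p of 0.00556 by limma. Il1r1, the signalling receptor of interleukin 1, had -1.14 and -0.83 with 1 and 2 bright of 4 probes on PRDM2 arrays 1 and 2, at an adjusted p of 0.00566. All 4 were also low for H3K9me2, from -2.25 at Dhrs9 to -3.47 at Il1r1. With normexp the PRDM2 means of Gsh1, Prom1 and Dhrs9 turned to 0.21, 0.18 and 0.19.

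Whether AT-rich probes differed from the rest of their own promoter was asked in 2098 genes with at least 3 probes of each class, a difference that no centring can move. AT-rich probes were lower for PRDM2 in 436 genes (20.8%), against 17.3% of all 2750 genes tested, and higher in 74 (3.53%), against 5.27% of all. The median difference, AT-rich minus other probes, was -0.45 and -0.34 on the PRDM2 arrays, with 1166 genes below 0 and 387 above 0 on both, and -0.22 on the H3K9me2 array. With normexp 0 genes were lower and 29 higher, and with the GC trend removed 75 were lower and 64 higher. Limma gave every gene the same standard error in this test, 0.39, and its p-values treat that error as known, although it comes from 2 arrays, so that very small ones are not to be read at face value.

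Among genes with bright input, the lowest within-gene differences were at GC-rich promoters. At Gsh1 the AT-rich probes averaged -1.84 and -0.79 and the other 16 probes 2.35 and 1.64, a difference of -3.31 (limma adjusted p = 8.94e-14). Slmap, a sarcolemmal membrane protein, differed by -2.70, Ube2n, a ubiquitin-conjugating enzyme, by -2.54, and Slc12a2, a sodium, potassium and chloride cotransporter, by -2.32. The other probes of Slmap and Ube2n had a mean G plus C of 52.5% and 56.9%. Differences in the other direction were found at Camk4, by 1.41 (limma adjusted p = 0.00334), Pfn4, a profilin, by 1.31, Hnt, now Ntm, a neuronal adhesion molecule, by 1.08, Mrgprb8, by 1.08, and Gas2, a cytoskeletal protein of growth arrest, by 1.03. With the limit at 40% these turn to -0.52 at Camk4, -0.068 at Hnt, -0.56 at Mrgprb8 and -0.54 at Gas2, and Mrgprb8 is at -0.31 with the median over probes. The 5 genes above the rest of their promoter had other probes of 40.2% to 44.9% G plus C. Input was bright at 80% or more of the AT-rich probes in 159 of the 436 and in 9 of the 74.

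H3K9me2 divided the AT-rich genes more widely than PRDM2 did. On its 1 array, with no replicate, the gene means had a median of -0.34, and the middle 90% ran from -2.40 to 1.43. Between-gene variance was 11.7% of the total for H3K9me2 and 1.18% and 1.58% for the PRDM2 arrays. Of the 2124 genes, 271 (12.8%) were at 1 or more, against 6.72% of all 18732 means, and 652 (30.7%) at -1 or less, against 13.4% of all. Of the 271, 27 had bright input and IP by the limits used for names, and of the 652, 260 had no AT-rich probe with bright IP. With normexp the counts were 8 and 0, with loess 854 and 96.

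The highest well-measured H3K9me2 values were at Fusip1, Ankrd1, Zfp521, Aldh1b1, Cyp20a1, Ppargc1a, Sprr2f and Ftmt, and IP and input were bright at nearly every probe. Fusip1, now Srsf10, a splicing factor, averaged 2.56 for H3K9me2, with 2.49, 3.5 and 1.70 at its 3 probes. Ankrd1, the cardiac ankyrin repeat protein of striated muscle, averaged 2.34, with 3.03, 0.87 and 3.13 at the probes printed above. Ppargc1a, the coactivator PGC-1alpha of mitochondrial biogenesis, averaged 2.07, with 0.77, 3.12 and 2.33. Every AT-rich probe of these 3 genes was above the array's median probe and bright in both channels on the H3K9me2 array. The remaining values were 2.18 at Zfp521, a zinc finger protein, 2.11 at Aldh1b1, a mitochondrial aldehyde dehydrogenase, 2.10 at Cyp20a1, a cytochrome P450, 1.73 at Sprr2f and 1.72 at Ftmt, mitochondrial ferritin. The other probes of the same promoters averaged -0.64 at Fusip1, -0.31 at Ankrd1 and -1.28 at Ppargc1a, below the array's median probe. With the limit at 40% in place of 35%, which adds probes of the same promoters, H3K9me2 was -0.32 at Fusip1, -0.48 at Cyp20a1, -1.19 at Ppargc1a and -0.06 at Ftmt.

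**Figure D4:**
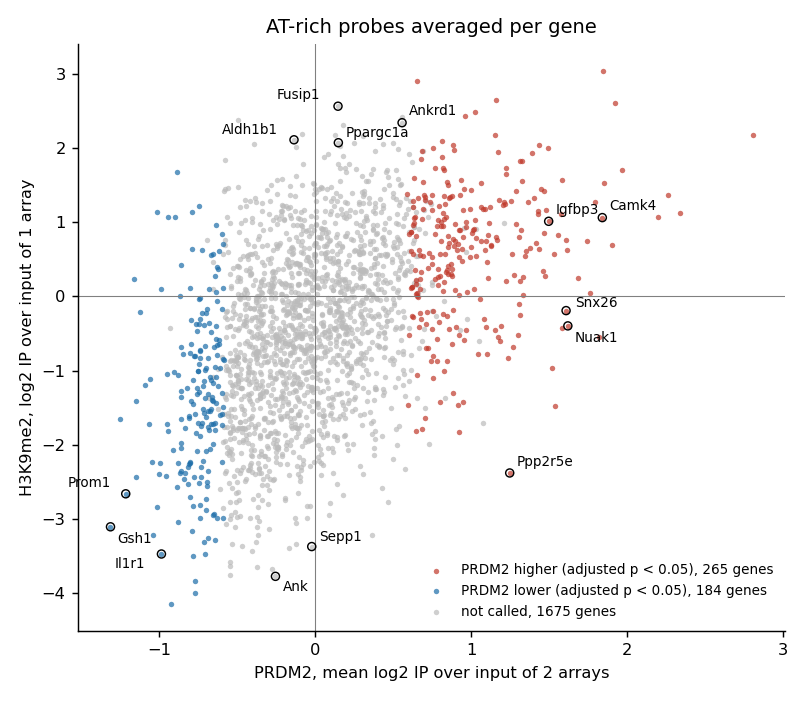
Each point is 1 of 2124 genes, with the mean log2 IP over input of its AT-rich probes for PRDM2 (mean of 2 arrays, horizontal) and for H3K9me2 (1 array, vertical). The 265 genes called higher and 184 called lower for PRDM2 are coloured, and Ank and Sepp1 lie under -3 for H3K9me2 with PRDM2 near 0.

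The direct comparison of the antibodies, PRDM2 minus H3K9me2, was fitted with limma over the 3 arrays, on the assumption that the single H3K9me2 array has the spread of the PRDM2 pair. The spread of H3K9me2 itself was not measured, so that the counts and p-values of this comparison hold only under that assumption. PRDM2 was higher than H3K9me2 at 500 genes (23.5%), against 26.7% of all means, and lower at 142 (6.69%), against 2.49% of all. Within the scan day that PRDM2 array 2 shares with the H3K9me2 array, the difference had the same sign at every gene called higher or lower. The calls used these same 2 arrays, so that sign was largely fixed by the calls and is no separate check of them. A fit with scan day as a block leaves no residual degrees of freedom. With the median over probes no gene passed either way, and with normexp 8 were higher and 0 lower. Of the 265 genes called higher for PRDM2, 92 also had H3K9me2 at 1 or more and 14 had it at -1 or less.

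PRDM2 exceeded H3K9me2 most at Ppp2r5e, Plag1, Ank, Tagap1 and Sepp1. At Ppp2r5e, a regulatory subunit of protein phosphatase 2A, PRDM2 gave 1.33 and 1.16 and H3K9me2 -2.38, a difference of 3.63 (SE 0.37; limma adjusted p = 0.0112). At Ank, a transporter that exports pyrophosphate and ATP, PRDM2 gave -0.33 and -0.18 and H3K9me2 -3.77, a difference of 3.52 (SE 0.37; limma adjusted p = 0.0112). At Sepp1, now Selenop, the selenium transport protein of plasma, PRDM2 gave 0.14 and -0.18 and H3K9me2 -3.37, a difference of 3.35 (SE 0.38; limma adjusted p = 0.0112). At Ank and Sepp1 PRDM2 was near the median probe and H3K9me2 IP was not well above background at any probe. The PRDM2 IP was dim too at Ank probe 1 on array 2 and at Sepp1 probe 4 on both PRDM2 arrays. Tagap1, a GTPase activating protein of T cell activation, differed by 3.40 and Plag1, a zinc finger oncoprotein, by 3.59, where PRDM2 array 1 rested on 1 probe at 5.71. H3K9me2 exceeded PRDM2 most at Fusip1 (-2.42, limma adjusted p = 0.0193) and Aldh1b1 (-2.25, limma adjusted p = 0.0161). Differences of -1.92 at Ppargc1a, -1.80 at Vapb, a membrane protein of the endoplasmic reticulum, and -1.78 at Ankrd1 were also past the threshold. At these 5 the H3K9me2 IP was bright at every AT-rich probe. The direction turns with normexp at Fusip1 (0.086) and Vapb (0.042), and with the limit at 40% at Fusip1 (0.40), Ppargc1a (1.01) and Ankrd1 (0.40).

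H3K9me2 at AT-rich probes followed the base composition of the rest of the promoter, while PRDM2 varied little. Genes were divided by the mean G plus C of their other probes, with the AT-rich probes themselves at a median of 31.7% in each class. In the 242 genes whose other probes averaged under 38%, the H3K9me2 gene median was 0.56, with 28.1% at 1 or more and 9.09% at -1 or less. This median equals the ratio of probes with surrogates in both channels, 0.56, and both channels were dim at 50.1% of the probes in this class and at 19.1% of those at 45 to 50%. Without probes dim in both channels the H3K9me2 probe medians were 0.94 under 38% and -1.66 at 45 to 50%. That filter keeps dim input only beside bright IP, so these 2 medians depend on input brightness. The H3K9me2 gene medians were -0.08 at 38 to 40% (404 genes), -0.49 at 40 to 42% (382), -0.48 at 42 to 45% (507), -0.69 at 45 to 50% (466) and -0.30 at 50% and over (97). In the class of 45 to 50%, 6.44% of genes were at 1 or more and 40.1% at -1 or less. PRDM2 medians lay at 0.17 and 0.08 on arrays 1 and 2 under 38% and between -0.17 and 0.01 in the other classes. Input brightness moved with these classes and its part in the result was not tested: input on the H3K9me2 array was bright at 38.9% of AT-rich probes under 38% and at 77.5% at 45 to 50%. Among probes with bright input on that array the H3K9me2 median was -0.53 under 38% and -1.82 at 45 to 50%. The PRDM2 medians, each among probes with bright input on that PRDM2 array, ran from -0.28 to -0.20 over all classes. The probes kept thus differed between the antibodies. H3K9me2 IP was bright at 54.8% of the 546 probes under 38% and at 43.9% of the 3639 probes at 45 to 50% among those with bright input on all 3 arrays. The H3K9me2 gap between probes at 45 to 50% and those under 38%, -1.64, was -0.01 with normexp, -0.48 with loess and -0.25 in the authors' deposited value table. In that table the median under 38% is again a deposited value of 0, so the -0.25 is taken from that tied value.

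The number of CpG dinucleotides in the AT-rich probe itself went with lower H3K9me2. Of the 17445 probes, 11865 held none, 4512 held 1, 929 held 2 and 139 held 3 or more. The H3K9me2 medians in that order were -0.37, -0.94, -1.69 and -1.95, while PRDM2 array 1 gave -0.14, -0.25, -0.32 and -0.37 and array 2 gave -0.16, -0.26, -0.41 and -0.39. The H3K9me2 medians were thus lower at each step, while input on that array was brighter in probes with CpG, with a median log2 level of -2.09 at 2 CpG and -2.83 at none, relative to the median probe. Restricted to probes of 30 to 35% with input bright on all 3 arrays, the medians were -1.29, -1.87, -2.38 and -2.57. The share with bright H3K9me2 IP among those was 49.0%, 42.3%, 33.3% and 34.3%. The H3K9me2 gap between probes with 2 or more CpG and those with none, -1.33, was -0.70 with loess, -1.25 with the GC trend removed and -1.05 in the authors' deposited value table, and -0.04 with normexp. In the deposited table the median of probes without CpG is also a deposited value of 0.

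**Figure D5:**
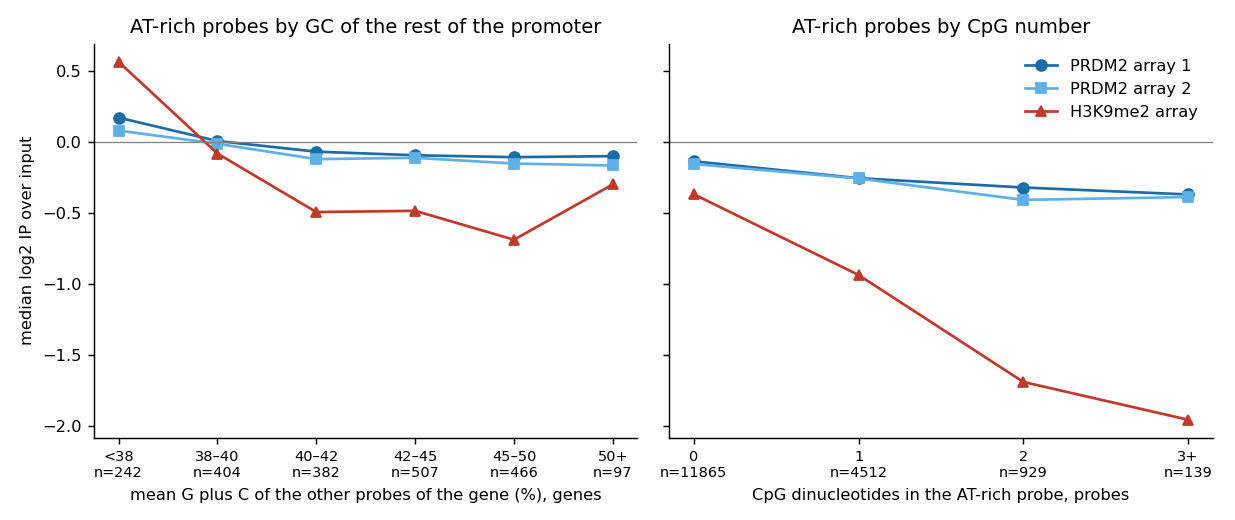
Median log2 IP over input of AT-rich probes on each array; left, over genes in classes of the mean G plus C of the gene's other probes, right, over probes by the number of CpG dinucleotides in the probe. The H3K9me2 line runs between 0.56 and -0.69 on the left and falls to -1.95 on the right, while the PRDM2 lines stay between -0.41 and 0.17.

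Close to gene starts, AT-rich probes were rarer than probes of the whole array and had lower H3K9me2 ratios. An exact match within the RefSeq window of 250 bases before to 50 bases after a gene's start (GRCm38.p6) was found for 338 AT-rich probes (1.94%), against 6.96% of all probes. These 338 had an H3K9me2 median of -1.69, against -0.57 for the other 17107, and PRDM2 medians of -0.35 and -0.33, against -0.18 and -0.20. At least 1 CpG was present in 46.7% of the 338 and in 31.7% of the others, and with input bright on all 3 arrays the H3K9me2 medians were -2.31 for 277 of them and -1.64 for 11351 others. H3K9me2 IP was bright at 32.0% of the 338 and 35.8% of the others, while input on that array was bright at 83.1% and 67.5%. The part of input brightness in the lower ratio was not tested, and the contrast was not repeated with other scalings. Of the 3420 receptor probes under 35%, 282 were in such windows, a larger share than that of AT-rich probes. These 282 had an H3K9me2 median of 0.56.

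The AT-rich genes were concentrated in certain families, which were set beside all 14886 autosomal gene names outside the receptors, of which 14.3% were tested. Of the prolactin family, pituitary and placental hormones clustered on chromosome 13, 17 of 20 genes (85%) had 3 or more AT-rich probes. Shares were 57.1% for taste and trace amine receptors (28 of 49), 54.2% for C-type lectins and killer lectin receptors of immune cells (26 of 48), 52.9% for UDP-glucuronosyltransferases of the liver (9 of 17) and 51.7% for cornified envelope genes of skin (15 of 29). None of 32 Hox genes was tested, and 8.11% of the list of cyclins and CDKs (3 of 37) were. That list was wider than its name, since Cdc73 and Cdc25a, neither a cyclin nor a CDK, were among the 3. Ccna2, the S-phase cyclin A2, had 1 of 9 probes under 35%, and the myogenic factors Myod1 and Myog had 0 of 20 and 0 of 18, so that none of the 3 had a mean.

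The median H3K9me2 ratio at AT-rich probes differed between families, with no test of the differences. Several of the medians below lie near 0.56, the ratio of AT-rich probes with surrogates in both channels on that array. How many such probes each family held was not counted. All 2124 AT-rich genes had a median of -0.34, with 271 at 1 or more and 652 at -1 or less. Prolactin genes had an H3K9me2 median of 0.70 with 7 of 17 at 1 or more and 1 at -1 or less. The median was 0.85 for UDP-glucuronosyltransferases (4 of 9 at 1 or more), 0.77 for cytochrome P450 genes (5 of 12), 0.72 for neurotransmitter receptors (3 of 10), 0.57 for lectin receptors (8 of 26), 0.40 for cornified envelope genes (4 of 15) and 0.38 for taste and trace amine receptors (6 of 28). For PRDM2, where 265 genes were higher and 184 lower with a median of -0.04, lectin receptors had 5 higher and 1 lower with a median of 0.26, P450 genes 4 and 1 with 0.29, keratins and keratin-associated proteins 5 and 2 of 14 with 0.34, and interferons 3 and 0 of 6 with 0.42. Clec4a4, a lectin receptor of myeloid cells, had the largest PRDM2 mean among the lectins, 2.63 and 1.77 (limma adjusted p = 0.000358), with IP bright at 1 of 3 probes on each PRDM2 array and input at 2. Tas2r120, a bitter taste receptor, had 1.67 and 2.27 (limma adjusted p = 0.000407), with neither IP nor input bright at any of its 4 probes on the PRDM2 arrays, where AT-rich probes with surrogates in both channels had medians of 2.04 and 3.0. Cyp2c37 went the other way, with PRDM2 at -0.99 and -0.81 and H3K9me2 at 1.06. Input was dim in these families, for instance bright at 2 of 6 Ifna9 probes on the H3K9me2 array.

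Other families had lower medians, among them tissue-restricted ones. Interleukins and chemokines had a median of -1.06 with 8 of 14 at -1 or less and none at 1 or more, ion channels -1.01 with 8 of 15, and defensins -1.22 with 2 of 3. Ubiquitin and proteasome genes had an H3K9me2 median of -0.92 with 8 of 18 at -1 or less, and 12 of 18 were lower than the rest of their promoter for PRDM2, against 436 of 2098 AT-rich genes in all. Zinc finger proteins stood near all AT-rich genes at -0.43, with 12 of 41 at -1 or less, and 10 of 41 were lower within their promoter. Fbxl21, an F-box protein, had PRDM2 means of -0.66 and -1.84 (limma adjusted p = 0.00645), and Ccl11, the chemokine eotaxin, had -0.87 and -0.73 (limma adjusted p = 0.0136) with no bright IP on any array. Solute carriers were at -0.35, with 4 of 36 at 1 or more and 11 at -1 or less. The 10 genes of the sarcomere list had a median of 0.15, with 3 at 1 or more and 2 at -1 or less. The 1 called higher for PRDM2 was Myh10, a non-muscle myosin heavy chain (limma adjusted p = 0.0301). Its PRDM2 mean was 1.97 on array 1 and only 0.21 on array 2, with IP bright at 3 and 0 of its 3 probes. The myogenic regulators with a mean were Mef2c, a transcription factor of muscle differentiation, with 0.31 and 0.46 for PRDM2 and 1.12 for H3K9me2 over 9 probes, and Myf6, a late myogenic factor, with 0.25, -0.79 and 0.19 over 3. PRDM2 at Mef2c did not pass the test (limma adjusted p = 0.171).

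Among the genes with most AT-rich probes and bright input were Asph (9 probes), Add1, Cwf19l1 and Pik3r1 (7 each), and their PRDM2 means lay between -0.66 and 0.40 on either array, none past the threshold. The probes of Asph, Add1 and Pik3r1 spanned 29272, 31100 and 79448 bp, more than 1 promoter region. Pik3r1, the regulatory subunit of phosphoinositide 3-kinase, had -0.66 and -0.14 for PRDM2 and -2.73 for H3K9me2 (difference 2.33, SE 0.39; limma adjusted p = 0.0164), with H3K9me2 IP bright at none of 7. Asph, an aspartyl hydroxylase of the endoplasmic reticulum, had 0.36, 0.25 and -0.42.

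Of 5 sequence features counted on both strands in the 17442 probes of 60 nt, a run of 8 A (8 T on the other strand) had the largest PRDM2 difference. It was found in 9.10% of AT-rich probes, against 3.68% of all probes of that length. AT-rich probes with the run had PRDM2 medians of 0.02 and 0.02, against -0.20 and -0.22 without it, and an H3K9me2 median of -0.85, against -0.57. The TATA box letters TATAAA were in 11.8% of AT-rich probes, against 7.74% of all, with PRDM2 medians of -0.16 and -0.19 with the motif and -0.18 and -0.20 without it. AATAAA, which can overlap TATAAA, was in 19.7%, against 12.5%, CCAAT in 9.01%, against 9.58%, and the E-box letters CANNTG in 20.0%, against 22.1%. PRDM2 medians with and without each of the last 3 motifs differed by under 0.05.

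Agreement between arrays was weaker at AT-rich probes than over the whole array. The correlation between the 2 PRDM2 arrays was 0.44 over 17389 AT-rich probes, 0.58 over the 2881 that were bright in IP and input on both and 0.65 over all probes. Between the H3K9me2 array and PRDM2 arrays 1 and 2 it was 0.41 and 0.37 over AT-rich probes, against 0.59 and 0.52 over all probes. Over the 2124 gene means the PRDM2 pair correlated at 0.47. Probes on 1 array share its DNA and labelling, so these values are descriptions with no p.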

How the data were processed

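The deposited scanner files hold red (Cy5, IP) and green (Cy3, input) intensities that, per the file headers, Agilent's scanner software had background-subtracted, detrended and dye-normalized, with surrogates for dim spots, beside a log10 ratio of the same signals and flags (well above background, saturated, outlier). The authors' deposited value table holds log2 ratios, made by steps that the sources used here do not name, and was used as an alternative. It correlated with the ratios computed here at 0.965, 0.940 and 0.972, in the same direction, with column medians of 0.124, 0.103 and 0.278, and its scaling stays unknown.

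From the processed signals the log2 ratio of IP over input was taken, outlier spots (773, 107 and 218) were dropped, and the median probe of every array was set to 0, with uncentred medians of -0.91, -0.80 and -0.27. Probes were averaged per gene, separately under 35% G plus C and at or above it, with at least 3 per mean, and tested with limma 3.58.1 in R 4.3.3 on the log2 scale, with Benjamini-Hochberg adjustment over all means and a threshold of 0.05. Sequences and figures used Python 3.11.15 with pandas 2.3.3, numpy 2.4.6 and matplotlib 3.10.9. The limma fits were tested on simulated data and the averaging per gene and class on constructed values. The other steps had no such test. The number of arrays limits the precision. Each array lies on a slide of its own, so slide and antibody cannot be told apart.

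Genes named needed bright input at 80% or more of their AT-rich probes on each array: the 8 highest PRDM2 means with bright IP at 50% or more, the 5 lowest, the 8 highest H3K9me2 values, the 5 largest differences each way between antibodies and within genes, and the 5 genes with most probes; in each of 29 gene lists up to 2 members were open to naming by the size of the PRDM2 mean, whatever the input. Predicted names were passed over, and some genes that met the rule are not reported here. The members and lists were chosen with earlier results of these data known. Alternatives were other background corrections and scalings, brightness filters, other limits and the median over probes.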

Additional observations from a re-analysis of the deposited data

Results flagged for a closer look

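PRDM2 minus H3K9me2 passed limma's test at 10 genes that were chosen for the size of this difference, with 1 H3K9me2 array whose spread was not measured, and no gene passed with the median over probes. PRDM2 was above H3K9me2 by 3.63 on the log2 scale at Ppp2r5e, 3.59 at Plag1, 3.52 at Ank, 3.40 at Tagap1 and 3.35 at Sepp1. The difference was -2.42 at Fusip1, -2.25 at Aldh1b1, -1.92 at Ppargc1a, -1.80 at Vapb and -1.78 at Ankrd1. Of these, Fusip1, Vapb, Ppargc1a and Ankrd1 change sign under normexp or with the limit at 40%. The 656 AT-rich probes without a gene name, which entered no gene mean, had IP well above background at 23.3% on PRDM2 array 1, 21.0% on PRDM2 array 2 and 31.9% for H3K9me2.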

How the results depend on the processing

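Dim IP signal limits these results, and each count of calls moved by over 1.5 times under at least 1 setting. Counts below are given as PRDM2 higher and lower, within-gene higher and lower, PRDM2 minus H3K9me2 higher and lower, single probes higher, and H3K9me2 at 1 or more and at -1 or less; medians are those of all AT-rich probes. The cause of each change was not tested, except that fewer probes or genes entered under the brightness filters, the limit of 30% and the minimum of 5 probes. With normexp the PRDM2 genes were 85 and 1, within-gene 29 and 0, antibody differences 8 and 0, single probes 0 and H3K9me2 8 and 0, and the medians were 0.43 for PRDM2 and -0.77 for H3K9me2. Also with normexp the within-gene PRDM2 median was 0.28, the PRDM2 means turned to 0.21 at Gsh1, 0.18 at Prom1, 0.19 at Dhrs9, 0.43 at Cyp2c37, 0.14 at Defb40, 0.30 at Mrgprb1, 0.19 at Ccl11, 0.31 at Cd96, 0.36 at Slc25a12, 0.27 at Kcnh8, 0.21 at Zfp169, 0.49 at Rpl6, 0.037 at Fbxl21 and 0.35 at Fbxl7, and the antibody difference was 0.086 at Fusip1 and 0.042 at Vapb. With loess the PRDM2 genes were 437 and 38, within-gene lower 66, antibody differences 102 and 512, single probes 458 and H3K9me2 854 and 96, with medians of 0.15 for PRDM2 and 0.18 for H3K9me2 and within-gene medians of 0.083 and 0.25. With the GC trend removed PRDM2 lower was 30, within-gene lower 75, antibody differences 319 and 83 and single probes 0, with medians of -0.050 and -0.40. With the median gene mean as 0 the PRDM2 genes were 51 and 737, antibody higher 50 and single probes 0, with medians of -0.66 and -0.40. These scalings moved the median of all gene means for PRDM2 by -0.34 with normexp, -0.35 with loess, -0.24 with the GC trend removed and -0.47 with the median gene mean as 0.

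With input bright on all arrays PRDM2 higher was 76, within-gene 8 and 151, antibody lower 27, single probes 0 and H3K9me2 high 54, with medians of -0.29 and -1.67. With IP bright on all arrays the PRDM2 genes were 5 and 0, within-gene 0 and 0, antibody differences 0 and 0 and H3K9me2 4 and 0, with medians of 0.69 and 0.90 and an H3K9me2 within-gene median of 0.50. With the median over probes the PRDM2 genes were 20 and 7, within-gene 37 and 114 and antibody differences 0 and 0, and PRDM2 was -0.10 at Nuak1, -0.14 at Mrgprb8 (-0.31 within the gene), -0.46 at Cyp2j5 and -0.044 at Slc26a3. Under 30% G plus C the PRDM2 genes were 35 and 3, within-gene 7 and 1, antibody differences 19 and 4, single probes 12 and H3K9me2 18 and 8, with medians of 0.095 and -0.30, a within-gene PRDM2 median of 0.022 and bright IP at 14.3%, 11.4% and 23.2%. Under 40% PRDM2 lower was 532, within-gene lower 6068, antibody differences 0 and 0, single probes 374 and H3K9me2 low 5216, with medians of -0.31 and -0.86 and bright IP at 58.9%, 51.6% and 58.2%. Under 40% the PRDM2 mean was 0.66 at Gsh1, 0.21 at Ccl11 and -0.063 at Cox7c, H3K9me2 was -0.32 at Fusip1, -0.48 at Cyp20a1, -1.19 at Ppargc1a and -0.055 at Ftmt, the antibody difference 0.40 at Fusip1, 1.01 at Ppargc1a and 0.40 at Ankrd1, and the within-gene difference -0.52 at Camk4, -0.068 at Hnt, -0.56 at Mrgprb8 and -0.54 at Gas2. With at least 5 probes the PRDM2 genes were 79 and 23, within-gene 21 and 60, antibody differences 86 and 51 and H3K9me2 88 and 94. With a variance trend PRDM2 lower was 311 and within-gene higher 39. In the authors' deposited value table PRDM2 higher was 148, within-gene 18 and 217, antibody differences 275 and 50 and single probes 0, with medians of -0.16 and -0.28, and PRDM2 was -0.054 at Ccl3, -0.15 at Hist1h4b, -0.11 at Hist1h1e and -0.28 at Cox7c. The H3K9me2 median of that table is a deposited value of 0 before centring. Keeping outlier spots moved none of these counts by over 1.5 times. The PRDM2 median was -0.20 without PRDM2 array 1 and -0.18 without array 2, and a single PRDM2 array leaves no residual degrees of freedom for the PRDM2 tests. No paired analysis was possible because H3K9me2 has 1 array and shares fewer than 2 replicate numbers with PRDM2. The within-gene medians and the contrasts by CpG, promoter base composition and receptor genes were added after the data were examined.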
